A study of Mus musculus with 4 samples.

Results

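Chromatin accessibility was examined at 9 genes of the JAK-STAT pathway, Stat2, Stat3, Stat4, Stat5a, Stat5b, Stat6, Socs1, Socs2 and Socs3, in mouse hematopoietic stem cells (HSCs) with and without Med23. Each gene was taken as its annotated body with 10 kb added on each side, and every accessible region that overlapped such a window was kept. This gave 26 regions of the 45475 formed from both peak lists of the study by merging overlapping peaks. The 26 regions held 23 WT peaks and 22 KO peaks. The 9 genes and the other lists of genes used here were picked by name and role, with earlier results of these data known.

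The assay was ATAC-seq, in which a transposase inserts sequencing adapters into open DNA, on bone marrow HSCs of adult C57BL/6 mice sorted by the labels as LSK cells that were CD150+CD34-CD48-. The WT samples carried floxed Med23 and no cre, spelled WT(Med23floxp/flowp), and the KO samples carried the same floxed alleles with a cre transgene, KO(Mx1-cre;Med23floxp/flowp). Mx1-cre is switched on through an interferon-inducible promoter by injection of poly(I:C), and it acts across the hematopoietic system and in other tissues that answer to interferon. Each reaction used 5000 sorted cells, which the paper's ATAC-seq methods describe as CD150+CD48- LSK with no mention of CD34. The labels name 2 samples for each genotype but 1 peak list, so none of the values below could be set against a spread between replicates, and loss of Med23, the cre transgene and any difference in poly(I:C) exposure cannot be told apart in these lists.

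Cytokine receptors carry Janus kinases, which phosphorylate STAT proteins. The phosphorylated STATs pair, enter the nucleus and bind DNA at palindromes that open with TTC and close with GAA. SOCS proteins are made in response and block the receptor or its kinase, closing a feedback loop, and in blood stem cells the pathway carries the signals of thrombopoietin, interleukins and interferons.

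The WT list held 37887 peaks on the autosomes and chromosome X and the KO list 37615. The pileup, the number of reads or fragments stacked at a peak's summit, was recovered for each peak and had a median of 18 in WT and 19 in KO. A KO over WT ratio is the ratio of pileups after each was divided by the background of its list, which was 1.19 for the WT list and 1.13 for the KO list. Its 95% binomial interval covers counting error only. In 28909 regions, each list had exactly 1 peak, and the median log2 ratio there was 0.17, and ratios were read against that value. Of 8 genes that mark the sorted stem cells, 5 had a promoter peak in both lists, while Ly6a, Slamf1 and Procr had none. Of 17 genes that mark T cells, B cells, granulocytes or monocytes, erythroid cells and megakaryocytes, 6 had a promoter peak in WT (summed pileup 158) and 6 in KO (summed pileup 162). Those of megakaryocytes went from 2 to 3 of 3 genes with a peak (summed pileup 71 and 99), with Gp9 at 0 in WT and 23 in KO. S100a8, the one granulocyte or monocyte marker with a peak, had 11 in WT and 0 in KO, and the erythroid markers summed to 49 and 40. The T cell markers Cd3e, Cd3g and Cd8a had none in either list. The part of other cells in the results below was not tested.

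The promoters of all 9 genes were accessible in both genotypes. Of the 26 regions, 19 were in both lists, 73.1% (95% Wilson interval 53.9 to 86.3), beside 64.8% of all regions. The interval takes the 26 regions as independent draws and covers no spread between replicates or settings. There were 4 regions in the WT list only, 15.4% of the 26 beside 18.1% of all regions, and 3 in the KO list only, 11.5% beside 17.2% of all regions. Both shares lay near those of all regions. The members' windows together held 21243 bases under WT peaks and 19835 under KO peaks, a KO over WT ratio of 0.934. Taken window by window, the median ratio over 16862 windows of protein-coding genes with peaks was 0.999. The members' value pools the bases of all 9 windows, so it is not the same measure as that median.

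**Figure D1:**
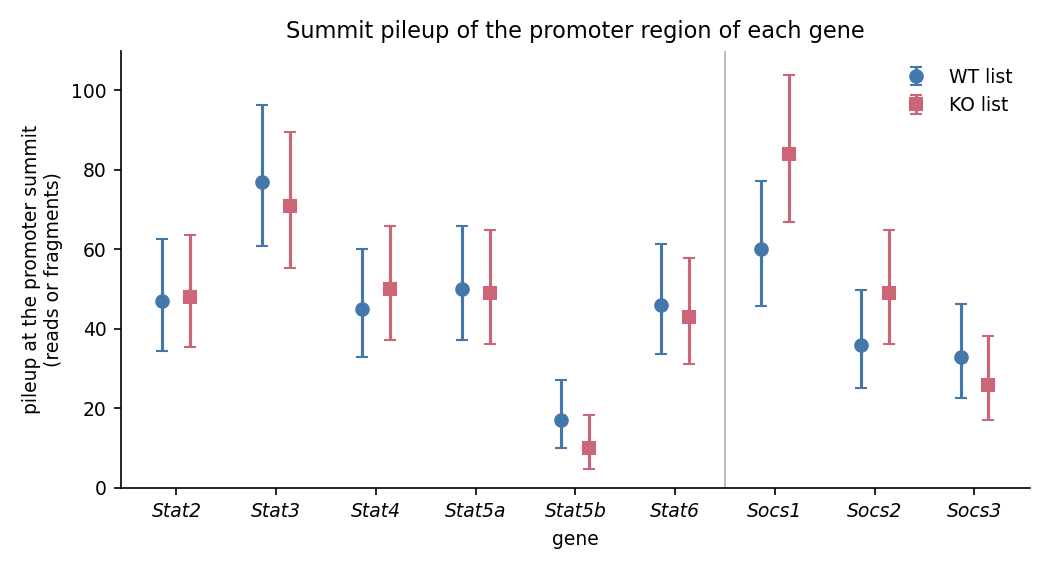
Pileup at the summit of the promoter region of each gene (y axis, reads or fragments) in the WT list (circles) and the KO list (squares), with 95% Poisson intervals that cover counting error only; the line parts STAT from SOCS genes. Stat3 and Socs1 had the highest promoter pileups and Stat5b the lowest in both lists.

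Among the STAT genes, Stat3 had the highest promoter pileup and Stat5b the lowest. In the authors' fold enrichment the order differed, with Stat2 (10.7 in WT, 13.2 in KO) and Stat5a (10.2 and 13.1) above Stat3 (9.95 and 12.6). The Stat3 promoter region (chromosome 11, 100938720 to 100940118, mm10) had a pileup of 77 in WT and 71 in KO. Stat3 relays interleukin 6 family cytokines and the granulocyte factor G-CSF. The WT value stood at percentile 90.1 of the 13478 promoter regions shared by both lists, whose median pileup was 31 in each list.

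The promoters of Stat5a, Stat2, Stat6 and Stat4 formed a middle group whose order was not resolved at this depth. Stat5a, which with Stat5b relays thrombopoietin, erythropoietin and interleukin 3, had a pileup of 50 in WT and 49 in KO. Stat2, which acts in the response to type I interferon, had 47 in WT and 48 in KO. Stat6, the factor of interleukin 4 and interleukin 13 signalling, had 46 in WT and 43 in KO. All 3 pairs differed by less than their counting intervals. Stat4, which answers interleukin 12, had 45 at its WT summit and 50 at its KO summit, a log2 ratio of 0.24 (interval −0.37 to 0.85). The log2 ratios of Stat2, Stat3, Stat5a and Stat6 lay between −0.03 and 0.12, below the median of 0.17, which all 4 intervals hold. On the scale of the authors' fold enrichment, where the median log2 ratio of all such regions was 0.26, the same 4 lay between 0.31 and 0.36, above that median.

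Stat5b was the one promoter past 1.5-fold from the median. Its region (chromosome 11, 100849687 to 100851254) had a pileup of 17 in WT and 10 in KO, and the WT value stood at percentile 21.8 of shared promoter regions and the KO value at percentile 5.24. The log2 ratio was −0.68, with an interval of −1.97 to 0.53 that holds the median of all regions, so a lower KO signal was not detectable at this depth. The authors' fold enrichment fell the same way, from 6.54 in WT to 3.83 in KO. Among the 6378 shared regions whose summed pileup lay within 20% of that of this region, 11.9% were at least 1.5-fold below the median and 4.41% were as low or lower. Stat5b had the lowest ratio of the 9 promoters, which these shares do not allow for. The bases within 100 bp of its summit had a GC content of 82.1%, the highest of the 26 regions.

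Among the inhibitors, Socs1 and Socs2 had higher promoter pileups in KO and Socs3 a lower one. Socs1, which binds Janus kinases directly and restrains interferon gamma signalling, had a promoter region (chromosome 16, 10784614 to 10786773) with a WT pileup of 60 and a KO pileup of 84. The log2 ratio was 0.57 (interval 0.08 to 1.07), which lies above 0 and holds the median of all regions. Socs2, best known as an inhibitor of growth hormone signalling, had a promoter region (chromosome 10, 95416168 to 95418116) with a WT pileup of 36 and a KO pileup of 49. Its log2 ratio was 0.53 (interval −0.12 to 1.19). Socs3, which blocks receptors of the interleukin 6 family and of G-CSF, went the other way with 33 in WT and 26 in KO at chromosome 11, 117968703 to 117970130. Its log2 ratio was −0.26 (interval −1.06 to 0.53). None of these 3 was past 1.5-fold from the median, and Socs1 and Socs2 lay above, and Socs3 below, the median of all such regions also with raw pileups and with the authors' fold enrichment.

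The promoter regions of all 3 SOCS genes held matches to the STAT palindrome, TTCNNNGAA or the same ends with a spacer of 4 bases in place of 3. So did those of 4 of the 6 STAT genes (Stat2, Stat4, Stat5a and Stat6), and 49.9% of the 2345 promoter regions in both lists that were as long as the SOCS ones, 1428 to 2160 bases. The stretches are shown because they carry the sequence that STAT proteins are known to bind at the genes that restrain them. They were read from the GRCm38.p6 reference (mm10) on the strand of the gene, 5′ to 3′, with the matches in capitals, and leave out annotated untranslated bases.
Socs1, chr16:10785941-10786223, minus strand, upstream of the gene: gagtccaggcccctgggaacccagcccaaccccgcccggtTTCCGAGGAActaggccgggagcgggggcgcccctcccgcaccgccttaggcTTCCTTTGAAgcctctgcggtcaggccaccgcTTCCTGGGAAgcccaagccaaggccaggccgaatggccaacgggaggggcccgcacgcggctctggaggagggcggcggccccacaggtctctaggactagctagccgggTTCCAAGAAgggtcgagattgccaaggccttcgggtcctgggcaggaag
Socs2, chr10:95416864-95416963, minus strand, annotated intron: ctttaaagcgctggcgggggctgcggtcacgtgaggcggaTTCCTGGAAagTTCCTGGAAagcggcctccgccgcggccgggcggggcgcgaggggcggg
Socs3, chr11:117969472-117969560, minus strand, annotated intron: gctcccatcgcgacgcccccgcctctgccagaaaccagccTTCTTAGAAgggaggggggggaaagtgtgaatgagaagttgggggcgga

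The Socs1 stretch held 1 match with the spacer of 3 and 3 with the spacer of 4, all between 445 and 638 bases upstream of the annotated start. They lay between 754 and 948 bases from the WT summit and between 497 and 691 bases from the KO summit, inside the called region but away from its highest point. In the Socs2 stretch the same 9 bases stood a second time with 2 bases between them, at −99 and −88 bases from the KO summit in genome coordinates, and the WT summit lay 102 bases farther away. A further Socs2 match, not shown, lay 933 bases from the KO summit and 831 from the WT summit. The Socs3 match shown was 161 bases from the WT summit and 225 from the KO summit. A further match of that region lay in untranslated sequence and is not shown. It was nearer to both summits, at −112 bases from the WT summit and −48 from the KO summit.

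Around the summits few of the member regions held such a match. Searched on both strands, which read the same for this palindrome, the bases within 100 bp of the WT summit, or of the KO summit where there was no WT peak, held the spacer of 3 in 1 of the 26 member regions (3.85%, beside 5.79% of all regions) and the spacer of 4 in 3 of them (11.5%, beside 4.48%). Around the KO summit where there was a KO peak, a choice added after the data were seen, the spacer of 3 was held by 3 of the 26 (beside 5.65% of all regions) and the spacer of 4 by 3 (beside 4.36%). Over the whole length of each region, 12 of the 26 (46.2%) held a match of either kind, beside 31.8% of all regions. Of the 300 bases around the start that RefSeq gives for 32619 promoters on the same build, 8.34% held the spacer of 3 and 6.99% the spacer of 4. Its entries covered 8 of the 9 genes, all but Socs2, with 11 promoters, of which 1 held the spacer of 3 (Socs3) and 1 the spacer of 4 (Stat2). A match is a description of the letters and not a measured binding site.

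**Figure D2:**
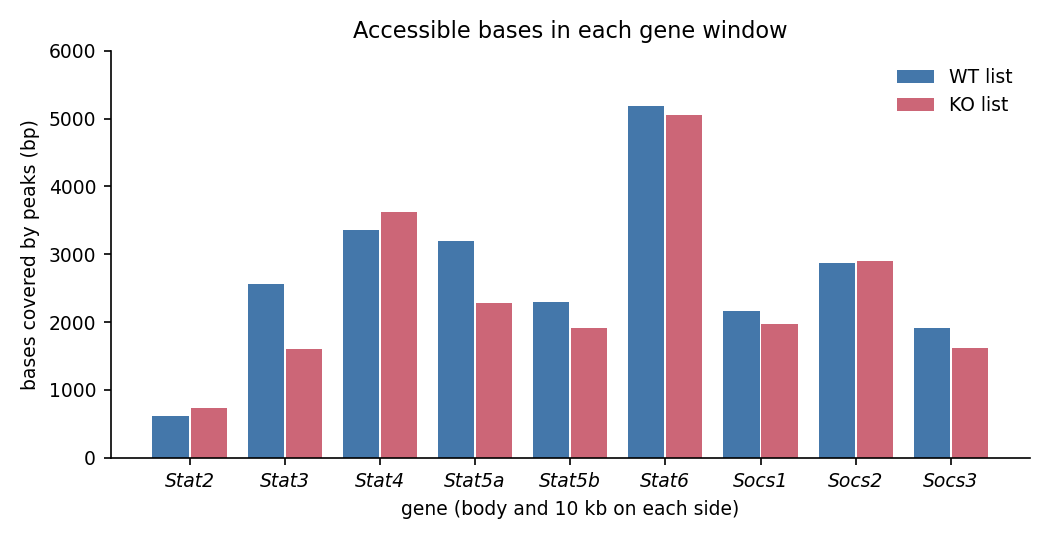
Bases under peaks (y axis, bp) in the body and 10 kb on each side of each gene, in the WT list and the KO list; there are no error bars because each genotype has 1 list. The Stat3 window held 2563 bases in WT and 1609 in KO, and the other 8 windows lay within 1.5-fold.

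In covered bases, the Stat3 window was the one that differed by 1.5-fold or more. It held 2563 bases under 3 WT peaks and 1609 under 2 KO peaks, a ratio of 0.628. That is 1 of 9 windows lower in KO, beside 13.4% of all protein-coding windows with peaks, and 0 of 9 higher in KO, beside 10.5%. With 9 windows, these counts do not set the members apart from other genes.

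The Stat3 difference came from the 3′ part of the gene and not from its promoter, which was 1322 bases wide in WT and 1295 in KO. The window of Stat5a, which lies tail to tail with Stat3 and shares those regions, held 3195 bases in WT and 2277 in KO (ratio 0.713). The window of Stat5b, upstream of Stat5a on the opposite strand, held 2294 and 1919 bases (ratio 0.836). Both directions turned when the added 10 kb were left out, to 79 more bases in KO for Stat5a and 112 more for Stat5b. The Stat3 window stayed lower in KO under each of the 4 alternatives run, with KO minus WT differences of −413 to −1031 bases.

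The KO over WT ratios of the other 6 windows ran from 0.847 for Socs3 to 1.175 for Stat2. Stat6 held 5187 bases in WT and 5055 in KO, the most of the 9 windows, spread over 3 regions. The region at the promoter of the neighbouring gene Nemp1 made 2365 of these bases in WT and 2575 in KO. Stat4 held 3362 and 3627 bases, and Socs2 held 2869 and 2904. Stat2 had a single region of 622 bases in WT and 731 in KO. Socs1 also had a single region in its window, 2160 bases wide in WT and 1974 in KO, and Socs3 held 1911 and 1619 bases. The sign of the difference for Stat4, Stat6, Socs1, Socs2 and Socs3 changed under at least 1 alternative window or threshold.

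**Figure D3:**
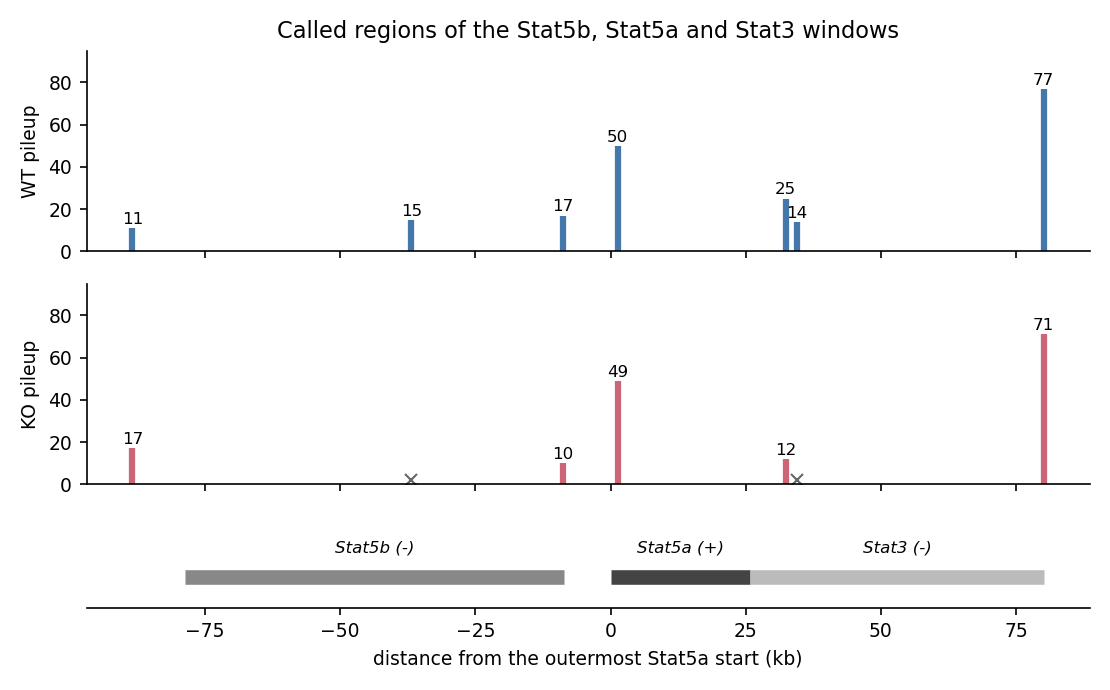
Summit pileup (y axes, reads or fragments) of each called region of the Stat5b, Stat5a and Stat3 windows by distance from the outermost Stat5a start (x axis, kb), WT above and KO in the middle, with a cross where a list had no peak and the genes with their strand below. The KO list had no peak at 2 of the regions, and the pileup was 12 in KO against 25 in WT in the Stat3 intron and 10 against 17 at the Stat5b promoter.

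On chromosome 11 Stat5b, Stat5a and Stat3 lie next to each other, and 2 of the 4 regions in the WT list only and both regions past 1.5-fold below the median fell in this cluster. That is 2 of the 19 member regions with 1 peak of each list below the median by that much, 0 above it, beside 7.91% and 7.64% of all such regions. By window, 1 of 3 Stat3 regions, 1 of 4 Stat5a regions and 1 of 4 Stat5b regions were in the WT list only, beside 18.1% of all regions. These windows share regions, and counts this small do not set the cluster apart. The region that differed most lay in an intron of Stat3, 1485 bases from an annotated Stat3 start (100891386 to 100892085). Its WT pileup was 25 and its KO pileup 12, and the WT peak was 700 bases wide and the KO peak 314. The log2 ratio was −0.97, with an interval of −2.10 to 0.07. That interval lies wholly below the median, as it did for 1 of the 19 member regions and for 1.54% of all regions with 1 peak of each list. None of the 19 had an interval wholly above it, beside 1.91%. Of 7137 shared regions of like summed pileup, 10.4% were at least 1.5-fold below the median and 0.701% were as low or lower. This region was picked as the lowest of the 19, which these shares do not allow for. The drop was smaller in the authors' fold enrichment, which divides by the local background (2.64 in WT, 1.42 in KO) and was 7.15 in WT and 5.36 in KO.

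The sequence around the WT summit of this intronic region is shown because it is the member region with the largest difference in pileup. It was chosen for printing after its values were seen. The sequence is GRCm38.p6, on the strand of Stat3, and the capitals mark the 11 bases at the summit.
Stat3 intron, chr11:100891697-100891897, minus strand: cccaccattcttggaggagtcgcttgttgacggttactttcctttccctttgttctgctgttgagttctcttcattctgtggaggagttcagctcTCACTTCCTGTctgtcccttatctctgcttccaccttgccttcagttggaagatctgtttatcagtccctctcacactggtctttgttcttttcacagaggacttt

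Next to it, a region in WT only (100893541 to 100894081) lay 137 bases from an annotated Stat3 start inside an exon of a noncoding Stat3 transcript. Its pileup was 14 and its fold enrichment 4.17, and the nearest KO peak was 1524 bases away. The strongest region in WT only lay in an intron of Stat5b, 83 bases from an annotated alternative start (100822355 to 100822697), with a pileup of 15 and a fold enrichment of 5.90. Its nearest KO peak was 26989 bases away. The median pileup of all regions in the WT list only was 10. In the other direction, the region at the promoter of Ghdc, a neighbour inside the Stat5b window, had a WT pileup of 11 and a KO pileup of 17, a log2 ratio of 0.71 (interval −0.46 to 1.95), just inside 1.5-fold above the median. Stat5a and Stat5b are near-identical paralogs, and how reads matching both were placed is not given in the sources used here.

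Away from that cluster, regions in 1 list only were found at Stat4 and Socs2. Stat4 had 7 regions, the most of the 9 genes, of which 5 were in both lists with log2 ratios of 0.21 to 0.43. An intronic Stat4 region 2824 bases from a start had a pileup of 48 in WT and 57 in KO, about that of the promoter. In KO only there was a Stat4 intronic region (chromosome 1, 52076482 to 52076796) with a pileup of 15 and a fold enrichment of 7.53, 529 bases from the start of the predicted gene Gm28177, and the nearest WT peak was 23782 bases away. In WT only there was a region beyond the gene's end with a pileup of 12 (52111697 to 52112494), 602 bases from the nearest KO peak.

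The strongest isolated region of each list is shown by its sequence, with the 11 bases at the summit in capitals, on the strand of the gene named and from GRCm38.p6. The Stat4 stretch holds a palindrome match with the spacer of 4, and the Stat5b stretch, which stops where untranslated sequence begins, holds none. Both run slightly past the called peak.
Stat4, KO only, chr1:52076632-52076832, plus strand, intron: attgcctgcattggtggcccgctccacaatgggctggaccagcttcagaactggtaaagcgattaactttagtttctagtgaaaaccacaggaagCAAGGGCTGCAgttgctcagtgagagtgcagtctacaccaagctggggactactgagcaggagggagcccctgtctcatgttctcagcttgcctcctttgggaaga
Stat5b, WT only, chr11:100822571-100822711, minus strand, intron: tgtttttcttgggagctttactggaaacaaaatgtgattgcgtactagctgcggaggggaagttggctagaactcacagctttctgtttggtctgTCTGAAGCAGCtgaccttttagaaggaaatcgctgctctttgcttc

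Socs2 had the most regions in 1 list only, 1 in WT and 2 in KO. The KO region with the highest pileup (16, at chromosome 10, 95415765 to 95416057) had its summit 1 base from an annotated Socs2 start. It lay 110 bases from the WT promoter peak and had a fold enrichment of 3.08, at percentile 0.444 of the KO list. It thus adjoined the larger Socs2 promoter region and was weak. The others were intronic, a WT region with a pileup of 9 at 95396207 to 95396764 and a KO region with 9 at 95398383 to 95398826. Each lay 1618 bases or less from a peak of the other list. At Socs3 a second region 5569 bases from the start was in both lists, with 16 in WT and 18 in KO. The 7 member regions in 1 list only had pileups of 9 to 16, all below the median of 18 or 19 for their whole list.

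**Figure D4:**
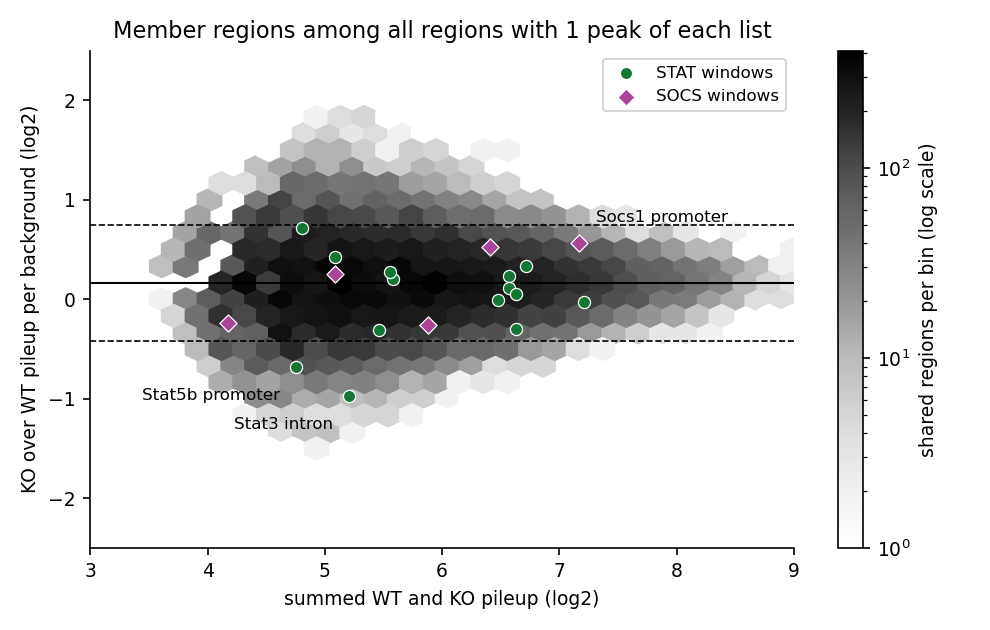
KO over WT pileup ratio per background (y axis, log2) against summed pileup (x axis, log2) for the 28909 regions with 1 peak of each list (grey bins, shaded by number of regions on a log scale) and the 19 member regions among them (circles for windows of STAT genes, diamonds for SOCS genes). The solid line is the median of all, 0.17, and the dashed lines are 1.5-fold from it; the Stat5b promoter and the Stat3 intron lie below and no member lies above.

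Over the 19 member regions with 1 peak of each list, the median log2 ratio was 0.12, beside 0.17 for all such regions. Of the 19, 9 lay above that median and 10 below, within a range of −0.97 to 0.71. In the authors' fold enrichment, which divides by the local background, 16 of the 19 were higher in KO, beside 77.5% of all such regions. In the pileup itself 10 of the 19 were higher in KO, beside 54.6%. The members' median local background was 3.56 in WT and 2.83 in KO, and that of all such regions was 2.17 and 1.84. Both measures thus moved in the members about as they did over all regions.

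The windows were drawn around genes, and start sites were common among the member regions. Of the 26 regions, 16 (61.5%) had their summit within 1000 bp of an annotated start, beside 36.2% of all regions, and their median GC content was 58.7% beside 52.2%. Of the 16, 12 were in both lists, and of the 10 away from starts 7 were. Summits of the 2 lists were a median of 35 bp apart in the 19 shared member regions and 42 bp apart in all such regions. They were over 100 bp apart in 4 of the 19, beside 25.5% of all such regions. These were the promoters of Socs1 (257 bp), Stat3 (163 bp) and Socs2 (102 bp) and that of Nemp1 in the Stat6 window (1211 bp).

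Around the 9 genes, 24 other genes of the pathway were examined by role: the 4 Janus kinases, 5 further SOCS family members, 4 PIAS proteins that restrain STATs in the nucleus, 5 phosphatases or adaptors and 6 genes known as STAT targets. All 24 promoters were accessible in both lists. In covered bases 6 of the 24 windows were at least 1.5-fold higher in KO, beside 10.5% of all protein-coding windows, and 2 were at least 1.5-fold lower, beside 13.4%. These 8 became 10 at a −log10 q minimum of 10, and 6 at a minimum of 5 and with gene bodies alone. They became 2 with 50 kb on each side and 1 at a 2-fold limit. The median ratio of the 24 was 1.14, and that of all windows 0.999. The 24 genes were listed with earlier results of these data known.

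The 6 higher windows were spread over the roles. The kinase genes Tyk2 (943 bases in WT, 2330 in KO) and Jak3 (1659 and 2555) were among them, and so were Socs7 (826 and 1543), Pias1 (942 and 1502), Pias2 (1224 and 1988) and the phosphatase gene Ptpn2 (1124 and 1783). In each of the 6 windows, at least 1 region in KO only made part of the difference, with pileups of 6 to 23. The one with 23, in the Jak3 window, lay 257 bases from a start of the neighbouring gene Unc13a. A region of that window nearest to Gm45756 went from 304 bases in WT to 1219 in KO. The region at the Jak3 start itself went from 541 bases in WT to 459 in KO. The 2 lower windows were Socs5 (1757 and 1139) and Pias3 (2441 and 1569), each of which had a region in WT only with a pileup of 7. That of Pias3 was 292 bases wide. A larger part of the Pias3 difference was a region 3 bases from a start of the neighbouring gene Nudt17, 805 bases in WT and 344 in KO. Of the STAT target genes 0 of 6 passed 1.5-fold in either direction.

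Tyk2 had the largest promoter difference of the 33 genes. The Tyk2 kinase works at receptors of interferons and interleukin 12. Its promoter region (chromosome 9, 21130841 to 21131672) had a WT pileup of 42 and a KO pileup of 87, a log2 ratio of 1.14 (interval 0.59 to 1.70). That interval lay wholly above the median, as in 1 of the 24 genes and in 1.91% of the regions with 1 peak of each list. Past 1.5-fold above the median were also Socs4 (32 and 53), and past 1.5-fold below it Pias1 (20 and 13) and the STAT target Bcl6 (37 and 22). That is 2 of 24 in each direction, beside 7.64% and 7.91% of all regions. The interval of Bcl6 lay wholly below the median, as in 1.54% of all regions.

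**Figure D5:**
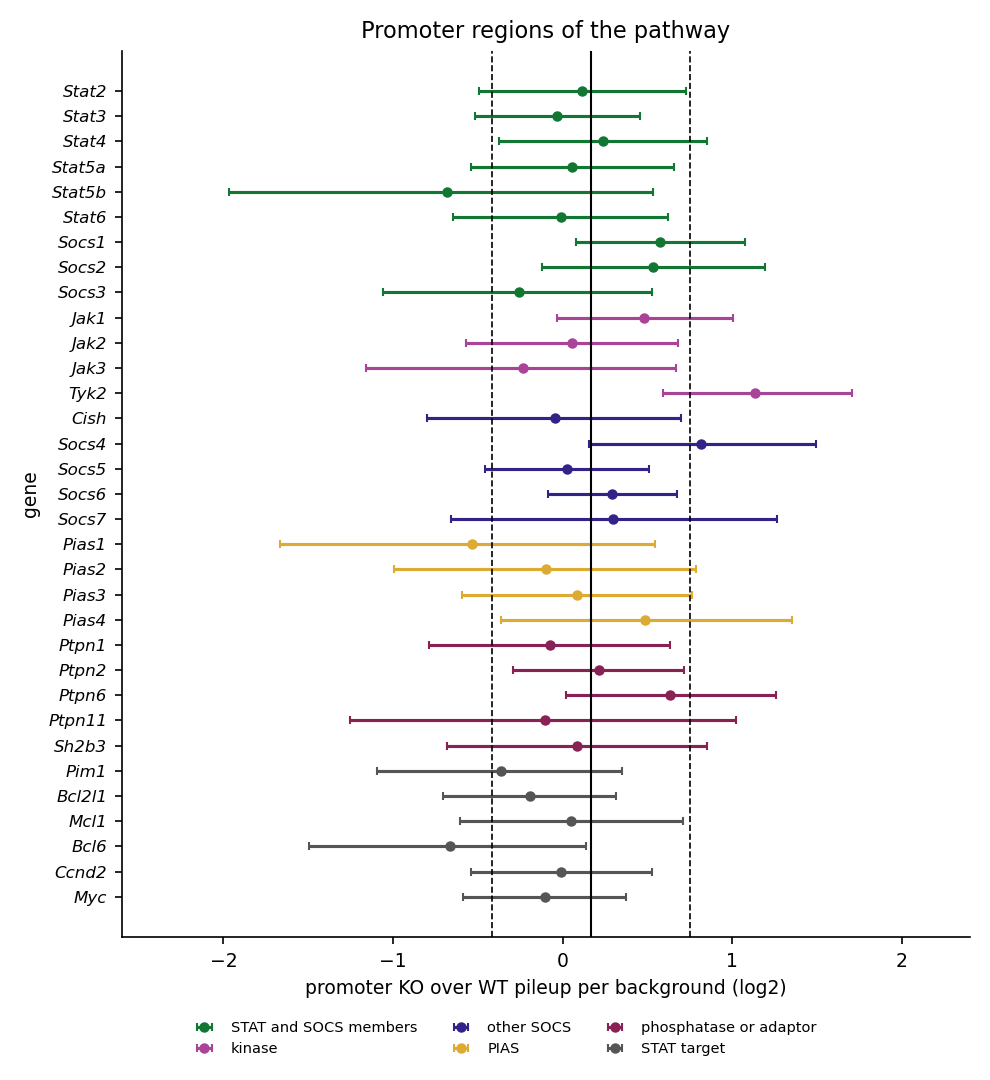
KO over WT pileup ratio per background (x axis, log2) at the promoter of the 9 STAT and SOCS genes and 24 other genes of the pathway (y axis), with 95% binomial intervals that cover counting error only, coloured by role; the solid line is the median of all shared regions, 0.17, and the dashed lines are 1.5-fold from it. Tyk2, at 1.14, is the point farthest to the right and Stat5b, at −0.68, the farthest to the left.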

How the data were processed

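ATAC-seq reads of WT and KO HSCs were, per the study's methods, checked with FastQC, trimmed with trim_galore, aligned to mm10 with Bowtie2, stripped of duplicates and mitochondrial reads with Picard, and used to call peaks with MACS2 without a fragment model. Versions and extension size are not given in the sources used here, nor whether replicates were pooled. Each deposited list gives a fold enrichment for each peak. This is the ratio of summit pileup to local background after the same small constant was added to both. For p and for q the list gives 2 −log10 columns, as the authors' caller wrote them. Its score column was deposited for display and was not used.

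The total read number is unknown. The summit pileup and local background were solved from the fold enrichment and −log10 p under the caller's Poisson model (python 3.11.15, scipy 1.17.1), and a whole pileup matched within 0.001 for 100% of peaks in each list. The median of the 1000 lowest local backgrounds stood for the background of a list. The deposited summit lists hold the same 75558 summits. Peaks on 20 chromosomes were merged where they overlapped by at least 1 bp. Promoter regions had a summit within 1000 bp of a start in GENCODE M21. The recovery and the overlap steps were tested on simulated data.

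The members and all gene lists were chosen with earlier results of these data known. No test was run, since each genotype has 1 list. Named were all 9 members, their promoter regions, the 3 strongest regions of each list alone, regions 1.5-fold or more from the median of all shared regions, and other pathway genes past 1.5-fold in covered bases. Other single regions and the pathway promoters named were chosen after their values were seen. Alternatives were stricter thresholds, other windows, other overlap rules, raw pileups, the authors' fold enrichment and a 2-fold limit.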

Additional observations from a re-analysis of the deposited data

How the results depend on the processing

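No paired analysis was possible because WT and KO have 1 peak list each, and for the same reason no replicate could be left out. The share of member regions in both lists (73.1%) lay between 57.7% and 85.0% under the alternatives. Other thresholds and windows also changed the number of member regions, to between 16 and 52. The share of all regions is given for the main rule only. The KO over WT ratio of covered bases (0.934) became 1.05 at a strict −log10 q minimum of 10, 0.970 for gene bodies alone and 0.966 with 50 kb on each side. The median log2 pileup ratio (0.12) became 0.21 at a −log10 q minimum of 5, 0.057 with 50 kb on each side, 0.030 with raw pileups and 0.31 with the authors' fold enrichment. The 8 other pathway genes past 1.5-fold became 10 at a −log10 q minimum of 10, and 6 at a minimum of 5 and with gene bodies alone. They became 2 with 50 kb on each side and 1 with a 2-fold limit. The shift with raw pileups is the dropped ratio of the backgrounds, the same for every region, and the cause of the others was not tested.

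Of the 9 differences in covered bases, 1 changed sign at a −log10 q minimum of 5 and 3 each at a minimum of 10, with gene bodies alone and with 50 kb on each side. Among them Stat4 went from 265 more bases in KO to −267, and Socs3 from −292 to 1052, both with 50 kb on each side. Read against the median of all shared regions, the promoters of Stat2, Stat3, Stat5a and Stat6 were below it by pileup and above it by the authors' fold enrichment. Depth limits the rest: at a summed pileup of 27 over both lists, as at the Stat5b promoter, the interval of the log2 ratio ran from −1.97 to 0.53.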
